A study of Mus musculus with 6 samples.

Results

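The miR-23/27/24 miRNAs are encoded as a pair of paralogous clusters in the mouse genome, with a copy on chromosome 8 (Mir23a, Mir27a and Mir24-2) and a copy on chromosome 13 (Mir23b, Mir27b and Mir24-1). Of the 199 mature miRNAs in the count table, 6 named entries of these clusters were examined. These were mmu-miR-23a-3p, mmu-miR-27a-5p, mmu-miR-27a-3p and mmu-miR-24-2-5p from chromosome 8, and mmu-miR-23b-3p and mmu-miR-27b-3p from chromosome 13 (the species prefix mmu is left out below). They were taken as a list of names, chosen with earlier results of these data known. Small RNA had been sequenced from organoids, cultures of mouse small intestinal epithelium that form in a gel when crypts are seeded. There were 3 libraries from organoids given PBS and 3 from organoids given BMP4 (bone morphogenetic protein 4, a secreted factor that promotes enterocyte differentiation) at 0.5 µg/ml for 4 days. All 6 cultures were kept in the same organoid growth medium, and the mouse strain and age are not given in the labels. The labels do not say whether libraries of the same group derive from separate cultures or animals, so p-values here cover the spread among these libraries, which may be technical.

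A miRNA cluster is transcribed as a single primary transcript, from which each hairpin is cut out and processed to a short duplex. One arm of the duplex, the guide, is usually kept in the silencing complex, and the other, the passenger, is mostly degraded. The guide pairs with messenger RNAs mainly through its seed, bases 2 to 8 from the 5′ end, so paralogs with the same seed are expected to share most targets. The miR-23a cluster is known for its part in blood cell lineage choice in mice, miR-27 for its part in lipid metabolism and fat cell differentiation, and the miR-23b cluster for repression of SMAD mRNAs, which encode the signal transducers of the TGF-β and BMP pathways, in fetal mouse liver.

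Mature sequences from RefSeq (GRCm38.p6) matched 5 of the 6 members, all but miR-23b-3p, and are shown here because the comparison of the copies rests on which bases tell them apart. Capitals mark the seed.
miR-23a-3p: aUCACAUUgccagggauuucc
miR-27a-3p: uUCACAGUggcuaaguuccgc
miR-27b-3p: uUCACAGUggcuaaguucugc
miR-27a-5p: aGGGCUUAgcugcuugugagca
miR-24-2-5p: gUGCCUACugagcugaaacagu
Counted from the 5′ end, miR-27a-3p and miR-27b-3p, both of 21 nt, differed by the single substitution C19U, outside the seed. A read that ends before that base belongs equally to both copies, and the counting program used by the authors may assign such a read to more than 1 entry. The levels of paralogs are therefore uncertain to the extent of such shared reads, whose number cannot be read from the counts. Among the 177 table entries with a RefSeq sequence, the seed of miR-27a-3p occurred at bases 2 to 8 in miR-27b-3p alone, and those of miR-23a-3p, miR-27a-5p and miR-24-2-5p in no other of these entries. miR-23b-3p, the paralog of miR-23a-3p, was not among the entries searched, so a seed shared by that pair was not looked for. miR-24-1-5p, the 5p arm of Mir24-1 on chromosome 13, was not among them either. It has the same seed as miR-24-2-5p, and the first substitution between these sequences is A17U.

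The chromosome 8 hairpins lie within 404 bases on the + strand, Mir23a at chr8:84208518-84208592, Mir27a at chr8:84208672-84208758 and Mir24-2 at chr8:84208815-84208921. In the GENCODE M21 annotation (GRCm38) Mir23a and Mir27a lie outside any other annotated gene, while the end of Mir24-2 overlaps an exon of the lincRNA Gm26532 and its antisense strand holds Mir3074-2. The chromosome 13 hairpins span 792 bases on the + strand, with Mir23b at chr13:63300484-63300557, Mir27b at chr13:63300712-63300784 and Mir24-1 at chr13:63301208-63301275. All 3 lie inside the protein-coding gene 2010111I01Rik (Aopep, an aminopeptidase gene), Mir23b in an intron and Mir27b and Mir24-1 overlapping an annotated exon of it, and in an intron of Fancc, a Fanconi anemia gene on the other strand. The antisense strand of Mir24-1 likewise holds Mir3074-1. The Mir27 hairpins are given with both mature arms in capitals, since both arms of each were measured.
Mir27a: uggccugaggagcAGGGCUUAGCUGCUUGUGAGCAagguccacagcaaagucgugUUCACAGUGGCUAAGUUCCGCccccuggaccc
Mir27b: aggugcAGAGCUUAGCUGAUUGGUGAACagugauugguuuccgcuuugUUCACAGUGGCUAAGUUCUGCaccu

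Library totals ranged from 259811 counts (PBS replicate 1) to 3486409 (BMP4 replicate 3). Levels are given as CPM, the count of a miRNA for each 1000000 counts of its library, after the library total was scaled by edgeR's TMM factor, under which most miRNAs are taken as unchanged. TMM factors were 1.78 to 1.97 in PBS and 0.375 to 0.651 in BMP4, with the lowest in BMP4 replicate 2. The markers of intestinal epithelium, miR-192, miR-194, miR-215 and the miR-200 family, were all present (8 of 8) and together took 49.7 to 51.7% of counts in PBS and 80.8 to 83.1% in BMP4. The larger share in BMP4 was that of miR-192, miR-194 and miR-215, at 35.9 to 39.1% in PBS and 76.6 to 78.9% in BMP4, and all 3 were called higher by edgeR with TMM (log2 fold change 1.46 to 3.85). The 5 miR-200 family members took 12.5 to 14.0% of counts in PBS and 2.99 to 4.29% in BMP4, and 0 of them were called with TMM (log2 fold change -0.43 to 0.45). Together the 6 members took 1.60% ± 0.338 of the PBS counts and 0.515% ± 0.227 of the BMP4 counts (SD, n = 3).

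After BMP4, members of the chromosome 8 copy were higher and those of the chromosome 13 copy were not called, except that with total counts as the scale miR-27a-3p had a value under 0 and both chromosome 13 members were called lower (values below). All 4 chromosome 8 members passed the threshold, miR-27a-3p closely and not under every setting, and 0 of the 2 chromosome 13 members did, by edgeR's quasi-likelihood test with Benjamini-Hochberg adjustment over the 195 miRNAs tested. Among all 195, 30.3% were called, 17.4% higher and 12.8% lower. The median log2 fold change was 2.49 for the 4 chromosome 8 members, -0.22 for the 2 chromosome 13 members and 0.03 for all miRNAs tested. For chromosome 13, 0 of 2 members had an unadjusted p under 0.05 by edgeR, and 0 of 2 were called by DESeq2. In these bulk samples, more cells that carry a miRNA and more of it per cell cannot be told apart.

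The guide arm of the first chromosome 8 hairpin, miR-23a-3p, was counted 31, 207 and 270 times in PBS replicates 1 to 3 and 220, 116 and 802 times in BMP4 replicates 1 to 3. Scaled, these were 60.7, 51.8 and 65.0 CPM in PBS and 341, 310 and 353 CPM in BMP4. In CPM the groups were far apart, and both were tight. As shares of counts they overlapped, at 0.0119, 0.00920 and 0.0127% in PBS and 0.0205, 0.0116 and 0.0230% in BMP4. The mean CPM was 5.66-fold higher in BMP4, and the log2 fold change was 2.50 ± 0.37 (SE, n = 3 per group, edgeR adjusted p = 1.54e-05). By count it ranked from 108 to 111 among the 199 entries in PBS libraries and from 61 to 69 in BMP4 libraries.

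miR-24-2-5p is the 5p arm of Mir24-2, and its full sequence is specific to the chromosome 8 copy. It was read 9, 73 and 54 times in PBS organoids and 122, 32 and 215 times after BMP4. Its levels were 17.6, 18.3 and 12.996 CPM in PBS and 189, 85.5 and 94.7 CPM in BMP4. In CPM, all BMP4 libraries lay above all PBS libraries, with BMP4 replicate 1 well above the other BMP4 libraries. It rose by 2.94 ± 0.44 on the log2 scale (SE, n = 3 per group, edgeR adjusted p = 1.98e-05), which ranked 10 from the highest of the 195. Without BMP4 replicate 1 the value was 2.49.

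miR-27a-5p, the passenger arm of Mir27a, was the rarest member, read 3, 43 and 32 times in PBS organoids and 27, 26 and 91 times after BMP4. It stood at 5.87, 10.8 and 7.70 CPM in PBS and at 41.9, 69.5 and 40.1 CPM in BMP4, again with no overlap. The value of PBS replicate 1 rests on a count of 3, so it carries little weight on its own. The log2 fold change was 2.48 ± 0.43 (SE, n = 3 per group, edgeR adjusted p = 0.000116), and 2.48 with PBS replicate 1 left out.

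miR-27a-3p, the guide arm of the same hairpin and the most abundant chromosome 8 member, moved less. Its counts were 240, 3167 and 3604 in the PBS libraries and 1116, 354 and 3284 in the BMP4 libraries. Its levels were 470, 792 and 867 CPM in PBS and 1731, 946 and 1447 CPM in BMP4. In CPM the groups did not overlap, but BMP4 replicate 2 lay close to the highest PBS library. Its log2 fold change was 0.95 ± 0.34 (SE, n = 3 per group, edgeR adjusted p = 0.0409). It did not pass once PBS replicate 1 (0.79, adjusted p = 0.150), PBS replicate 2 (1.09, adjusted p = 0.0933), PBS replicate 3 (1.21, adjusted p = 0.0533), BMP4 replicate 1 (0.75, adjusted p = 0.140) or BMP4 replicate 3 (0.91, adjusted p = 0.114) was left out, nor with upper quartile scaling (adjusted p = 0.0660) or no filter on low counts (adjusted p = 0.0511).

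On chromosome 13, miR-27b-3p was the most abundant of the 6 members, read 2470, 28393 and 34284 times in PBS organoids and 4784, 1804 and 16865 times after BMP4. Scaled, it stood at 4835, 7099 and 8251 CPM in PBS and at 7420, 4821 and 7430 CPM in BMP4. The ranges of the groups overlapped widely. Its log2 fold change was -0.04 ± 0.30 (SE, n = 3 per group, edgeR adjusted p = 0.928). It ranked from 14 to 20 among all entries in PBS and from 15 to 22 in BMP4.

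miR-23b-3p, its neighbour, was read 592, 3249 and 3444 times in PBS organoids and 523, 198 and 1764 times after BMP4. Its levels were 1159, 812 and 829 CPM in PBS and 811, 529 and 777 CPM in BMP4. Every BMP4 library lay under every PBS library, but BMP4 replicate 1 and PBS replicate 2 were nearly level. The difference on the log2 scale, -0.40 ± 0.33 (SE, n = 3 per group, edgeR adjusted p = 0.389), was not called. In TMM-scaled CPM, groups did not overlap for 4 of 4 chromosome 8 members, all higher in BMP4, against 23.6% of all miRNAs tested. They did not overlap for 1 of 2 chromosome 13 members, lower in BMP4, against 20.0%. As shares of counts, the groups overlapped for miR-23a-3p, miR-27a-3p and miR-24-2-5p. On that scale miR-27a-5p was higher in BMP4 without overlap, and miR-23b-3p and miR-27b-3p were lower without overlap.

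**Figure D1:**
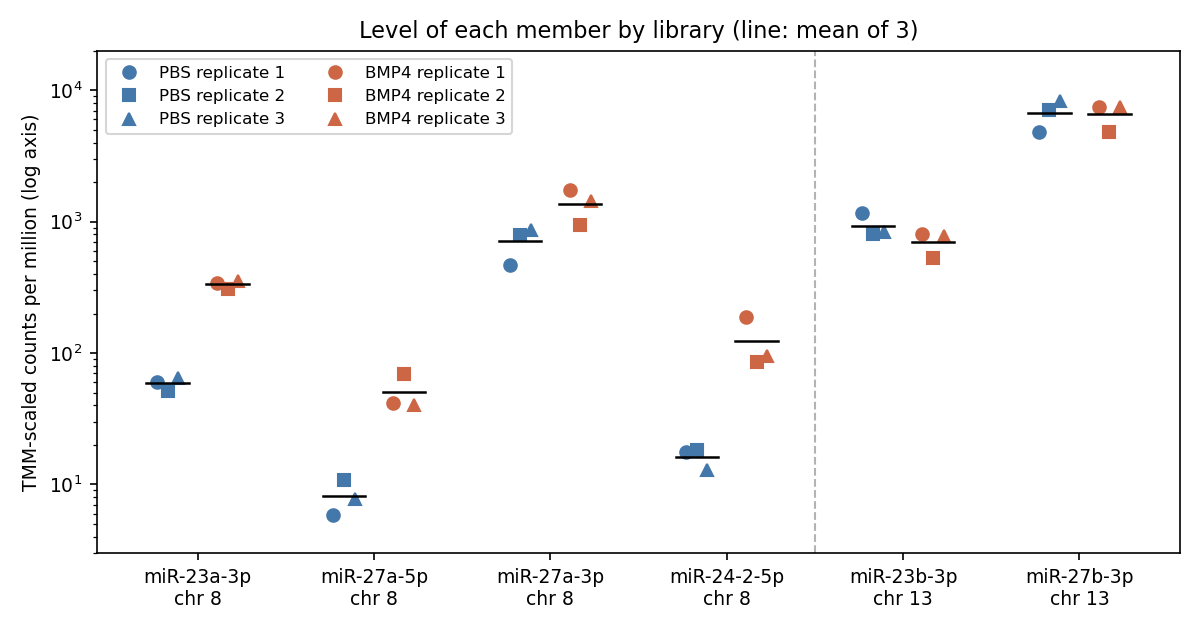
TMM-scaled CPM (log axis) of the 6 members in each of the 3 PBS (blue) and 3 BMP4 (orange) libraries, with black lines at the group means and a dashed line between the chromosome 8 and chromosome 13 members. The mean of miR-23a-3p went from 59.1 to 335 CPM, while miR-27b-3p stood at 6728 CPM in PBS and 6557 CPM in BMP4.

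In order of level, PBS organoids had miR-27b-3p (6728 ± 1738 CPM, SD, n = 3), miR-23b-3p (933 ± 195), miR-27a-3p (710 ± 211), miR-23a-3p (59.1 ± 6.75), miR-24-2-5p (16.3 ± 2.87) and miR-27a-5p (8.11 ± 2.46). The PBS ranges of miR-23b-3p and miR-27a-3p overlapped, and those of the other neighbours in this order did not. In BMP4 the order was miR-27b-3p (6557 ± 1503), miR-27a-3p (1375 ± 397), miR-23b-3p (706 ± 154), miR-23a-3p (335 ± 22.3), miR-24-2-5p (123 ± 57.4) and miR-27a-5p (50.5 ± 16.5), in CPM (SD, n = 3). Thus miR-27a-3p and miR-23b-3p changed places in the order of means, and in BMP4 no neighbours in the order overlapped. In PBS replicate 3, however, miR-27a-3p was already above miR-23b-3p (867 against 829 CPM). All members are 21 or 22 nt long where a sequence was matched and so hardly differ in length.

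The shift between copies was followed in ratios of counts within a library, which do not depend on how libraries are scaled. Among the miR-23 guide counts, miR-23a-3p held 4.98% (95% Wilson interval 3.53 to 6.98), 5.99% (5.25 to 6.83) and 7.27% (6.48 to 8.15) in the PBS libraries. In the BMP4 libraries it held 29.6% (26.4 to 33.0), 36.9% (31.8 to 42.4) and 31.3% (29.5 to 33.1). The chromosome 8 copy thus went from 6.08% ± 1.15 to 32.6% ± 3.85 (SD, n = 3) of the miR-23 guide. The log2 of the miR-23a-3p to miR-23b-3p ratio was higher by 2.91 in BMP4, or 7.50-fold.

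For the miR-27 guide the same shift was smaller. miR-27a-3p held 8.86% (7.84 to 9.98), 10.03% (9.71 to 10.37) and 9.51% (9.22 to 9.81) of miR-27a-3p and miR-27b-3p counts in the PBS libraries. After BMP4 its shares were 18.9% (17.9 to 19.9), 16.4% (14.9 to 18.0) and 16.3% (15.8 to 16.8). The means were 9.47% ± 0.591 and 17.2% ± 1.48 (SD, n = 3). The log2 ratio was higher by 0.99 in BMP4, or 1.98-fold. For both pairs the groups did not overlap, and the exact 2-sided permutation p was 0.1, the smallest that 3 libraries against 3 allow (0.15 after Benjamini-Hochberg adjustment over the 9 ratios compared). Taken over both guides, the ratio of chromosome 8 to chromosome 13 counts went from 0.0993 ± 0.00946 to 0.235 ± 0.0162 (SD, n = 3), with the same exact p of 0.1. Reads too short to tell the copies apart would add to both entries of a pair if the program counted them under both. Their part in these shares was not tested. For miR-23, the bases that tell the copies apart were not looked at, since miR-23b-3p had no matched sequence.

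**Figure D2:**
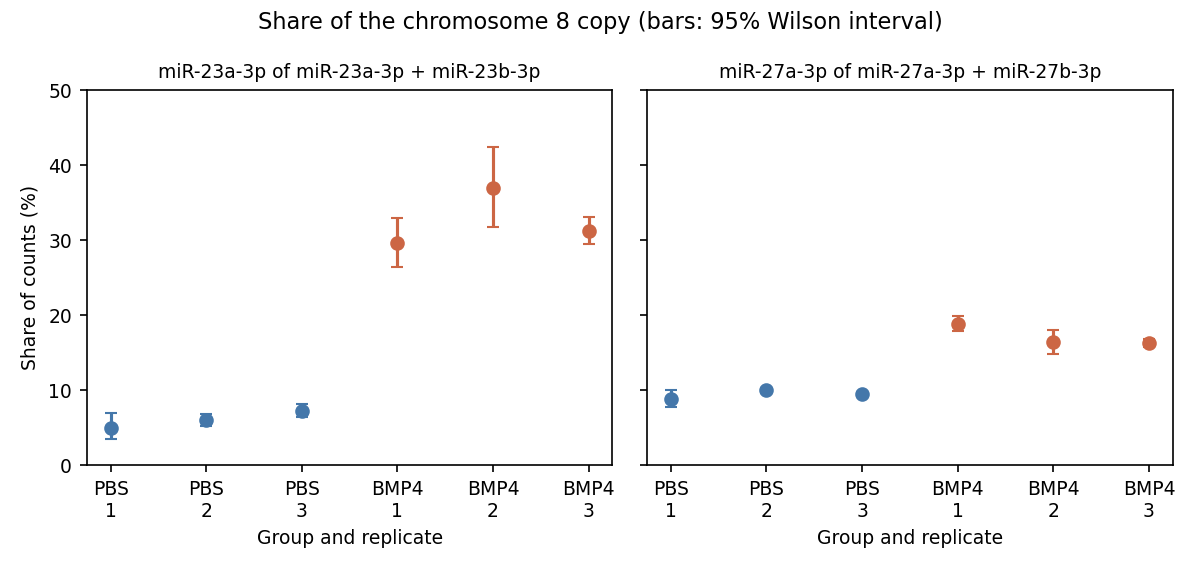
Share (%) of the chromosome 8 copy in the miR-23 guide counts (left) and the miR-27 guide counts (right) of each library, with 95% Wilson intervals that cover counting error only. The BMP4 libraries lie between 29.6 and 36.9% on the left and between 16.3 and 18.9% on the right, above all PBS libraries.

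The copy shift was larger for miR-23 than for miR-27 in these libraries. The log2 ratio of copies of miR-23 minus that of miR-27 was -0.87, -0.80 and -0.42 in PBS replicates 1 to 3. It was 0.85, 1.58 and 1.22 in BMP4 replicates 1 to 3. The sign was opposite in the groups, with a difference of 1.92 between them and an exact permutation p of 0.1 (adjusted p = 0.15 over the 9 ratios). Reads shared by miR-27a-3p and the more abundant miR-27b-3p, if counted under both, would enter this difference. Their part was not tested, so how far the smaller miR-27 shift reflects counting is not known.

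Neighbouring guides of a copy were also compared with each other. On chromosome 8, miR-23a-3p counts divided by miR-27a-3p counts gave 0.131, 0.0655 and 0.0750 in PBS and 0.197, 0.329 and 0.244 in BMP4. The change of miR-23a-3p thus exceeded that of miR-27a-3p by 1.54 on the log2 scale (2.91-fold), with no overlap and an exact permutation p of 0.1. Reads shared with miR-27b-3p, if counted under miR-27a-3p, would enter this ratio, and their part was not tested. On chromosome 13, the ratio of miR-23b-3p to miR-27b-3p was 0.240, 0.114 and 0.1005 in PBS and 0.109, 0.110 and 0.105 in BMP4. Apart from PBS replicate 1, the shallowest library, the values lay between 0.1005 and 0.114. The difference between groups was -0.38 on the log2 scale (exact permutation p = 0.6) with that library and 0.01 without it (exact permutation p = 0.9).

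**Figure D3:**
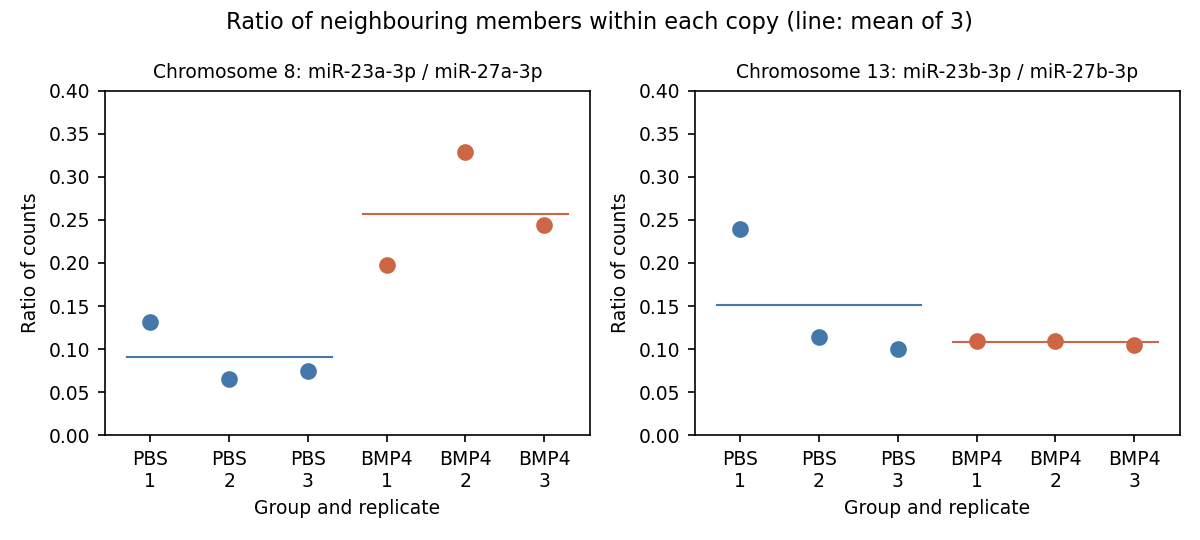
Ratio of counts, with 0.5 added to each, of the miR-23 guide to the miR-27 guide of the same copy in each library, with lines at the group means. On chromosome 8 the BMP4 libraries (0.197 to 0.329) lie above the PBS libraries (0.0655 to 0.131). On chromosome 13 PBS replicate 1 stands apart at 0.240.

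Among the other chromosome 8 members, proportions overlapped between groups. The ratio of miR-24-2-5p to miR-27a-5p was 2.03 ± 0.595 for PBS and 2.68 ± 1.64 for BMP4 (SD, n = 3). That of miR-24-2-5p to miR-23a-3p was 0.286 ± 0.0776 for PBS and 0.368 ± 0.163 for BMP4 (SD, n = 3). Neither difference exceeded the spread between libraries (exact 2-sided permutation p = 0.7 and 0.6). These differences, of 0.25 and 0.32 on the log2 scale, fell to -0.22 and -0.02 without BMP4 replicate 1.

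Within the Mir27a hairpin, the share of the passenger arm was higher in every BMP4 library than in any PBS library. miR-27a-5p made up 1.23% (95% Wilson interval 0.421 to 3.57), 1.34% (0.996 to 1.80) and 0.880% (0.624 to 1.24) of the counts of both arms in the PBS libraries. The BMP4 libraries gave 2.36% (1.63 to 3.42), 6.84% (4.71 to 9.84) and 2.70% (2.20 to 3.30). BMP4 replicate 2 was far above the other libraries, and the interval of BMP4 replicate 1 overlapped those of PBS replicates 1 and 2, as that of BMP4 replicate 3 overlapped that of PBS replicate 1. The log2 ratio of the arms was higher in BMP4 by 1.61 with all libraries (exact permutation p = 0.1) and by 1.11 without BMP4 replicate 2. The miR-27a-3p counts here may also hold reads shared with miR-27b-3p, whose part was not tested. In Mir27b, the 5p arm held 1.08% (0.744 to 1.57), 0.375% (0.311 to 0.453) and 0.314% (0.260 to 0.379) in the PBS libraries. After BMP4 it held 0.188% (0.0988 to 0.357), 0.551% (0.2997 to 1.01) and 0.254% (0.189 to 0.342), and there the groups overlapped.

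**Figure D4:**
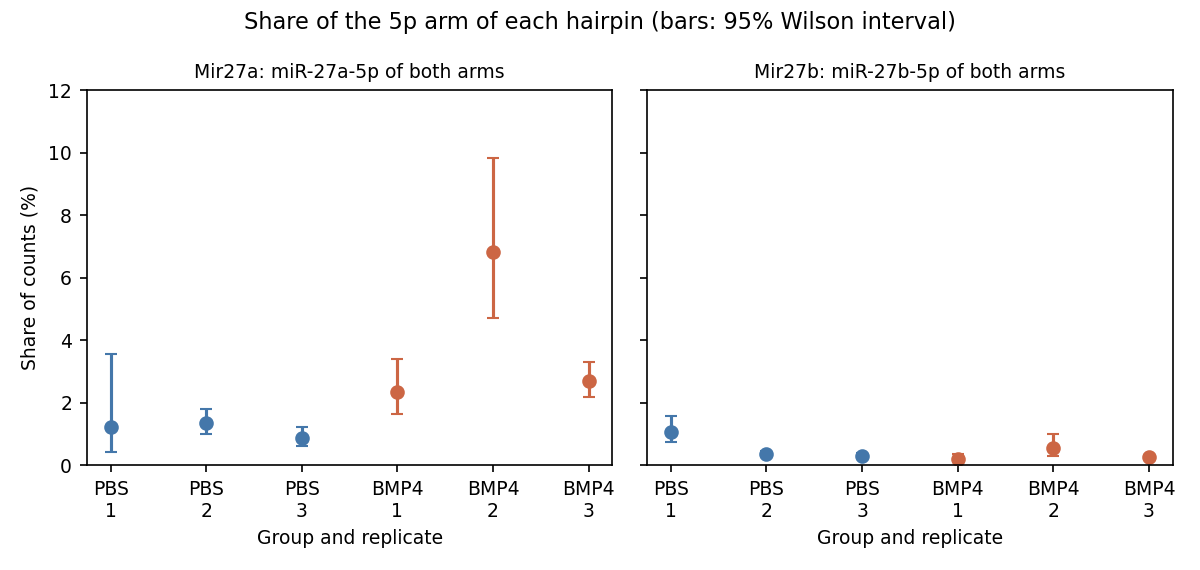
Share (%) of the 5p arm in the counts of both arms of Mir27a (left) and Mir27b (right) in each library, with 95% Wilson intervals that cover counting error only. For Mir27a the BMP4 libraries lie at 2.36, 6.84 and 2.70% and the PBS libraries at 1.23, 1.34 and 0.880%.

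Of 8 other arms of these hairpins and their antisense hairpins that were looked for, 3 had values and the rest were not analysed here. miR-24-3p, the 3p arm that both copies encode with the same sequence and that is usually taken as the guide, was read 5, 85 and 72 times in PBS organoids and 25, 3 and 48 times after BMP4. Its log2 fold change was 0.44 ± 0.46 (SE, n = 3 per group, edgeR adjusted p = 0.498) and -0.04 without BMP4 replicate 1. miR-24-3p had fewer counts than miR-24-2-5p, its partner on Mir24-2, in all 3 BMP4 libraries and in PBS replicate 1. In PBS replicates 2 and 3 it had more (85 against 73 and 72 against 54). Its counts may come from either copy, so they do not compare the arms of Mir24-2 alone. Which arm of Mir24-2 is the guide in these organoids was not tested. miR-27b-5p was read 27, 107 and 108 times in PBS organoids and 9, 10 and 43 times after BMP4, at -0.78 ± 0.44 on the log2 scale (edgeR adjusted p = 0.206). miR-23b-5p was read 0, 42 and 29 times in PBS organoids and 6, 2 and 12 times after BMP4, and was removed by the filter on low counts. Thus 0 of the 2 other arms tested were called by edgeR, 0 had an unadjusted p under 0.05, and 0 were called by DESeq2.

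Summed over the copies, neither the miR-23 guide nor the miR-27 guide was called with TMM, whereas with total counts as the scale both sums were called lower (-1.70, edgeR adjusted p = 0.00144, and -1.65, adjusted p = 0.00110). miR-23a-3p and miR-23b-3p together stood at 1223, 867 and 897 CPM in PBS and at 1142, 841 and 1127 CPM in BMP4. Refitted as a single entry, they differed on the log2 scale by 0.06 ± 0.32 (SE, n = 3 per group, edgeR adjusted p = 0.879 over 193 entries). miR-27a-3p and miR-27b-3p together stood at 5319, 7917 and 9147 CPM in PBS and at 9071, 5781 and 8852 CPM in BMP4, and differed on the log2 scale by 0.08 ± 0.30 (adjusted p = 0.845). The groups overlapped for both sums. A sum counts each shared read under both entries if the program did so, as the single entries do.

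**Figure D5:**
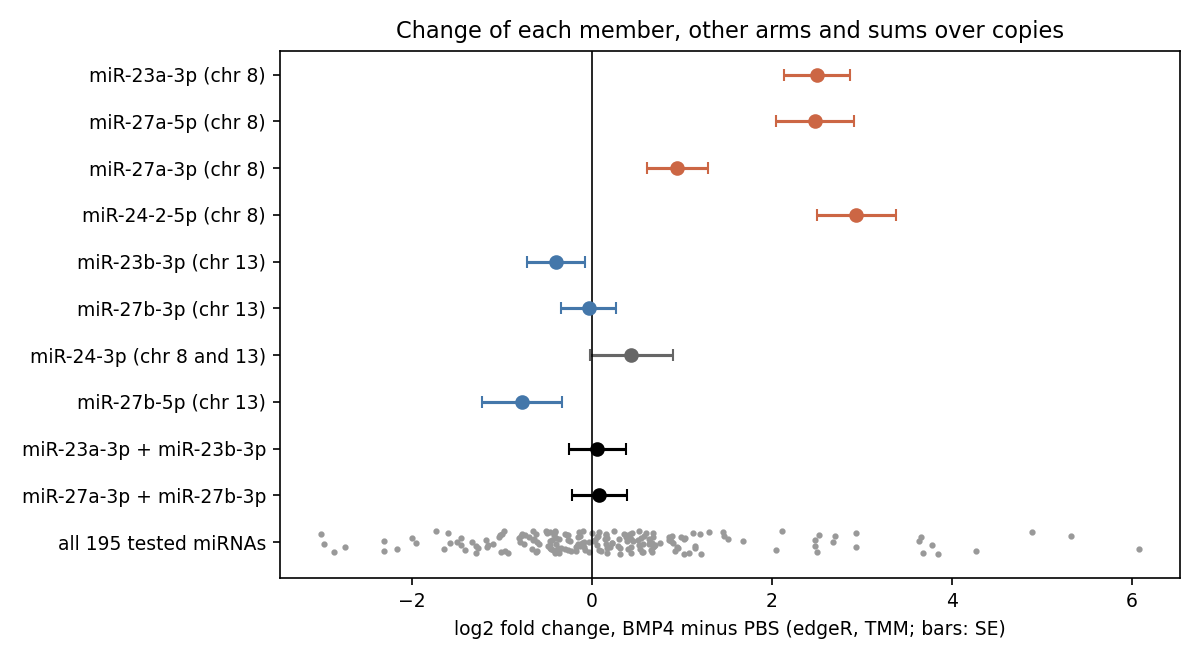
Log2 fold change (BMP4 minus PBS, edgeR with TMM) with its SE for chromosome 8 members (orange), chromosome 13 members and miR-27b-5p (blue), miR-24-3p (grey) and the sums over copies (black), above the values of all 195 miRNAs tested (grey dots, spread vertically for visibility). The 4 chromosome 8 members lie between 0.95 and 2.94, and the sums at 0.06 and 0.08. With total counts as the scale miR-27a-3p was at -0.79 and the sums at -1.70 and -1.65.

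TMM takes the typical miRNA as unchanged, so the changes above are relative to it. With total counts as the scale, the median log2 fold change of all 195 moved from 0.03 to -1.78, and 6.67% were called higher and 81.0% lower by edgeR. On that scale 1 of the 4 chromosome 8 members was called higher, miR-24-2-5p (1.19, adjusted p = 0.0355). The others did not pass, at 0.71 for miR-23a-3p (adjusted p = 0.109), 0.67 for miR-27a-5p (adjusted p = 0.138) and -0.79 for miR-27a-3p (adjusted p = 0.0924), whose direction flipped. Both chromosome 13 members were called lower, miR-23b-3p at -2.16 (adjusted p = 0.000469) and miR-27b-3p at -1.78 (adjusted p = 0.000668). Set against that shifted median, the members lay at 2.50 (miR-23a-3p), 2.46 (miR-27a-5p), 0.995 (miR-27a-3p), 2.97 (miR-24-2-5p), -0.38 (miR-23b-3p) and -0.002 (miR-27b-3p). As shares of counts, miR-27b-3p went from 1.27% ± 0.330 to 0.370% ± 0.165 and miR-23a-3p from 0.0113% ± 0.00183 to 0.0184% ± 0.00598 (SD, n = 3).

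Markers of cell types other than epithelium were low beside the epithelial markers. In PBS, those with values stood at levels like those of the rarer chromosome 8 members. There miR-23a-3p was at 51.8 to 65.0 CPM, miR-24-2-5p at 12.996 to 18.3 CPM and miR-27a-5p at 5.87 to 10.8 CPM. In BMP4 these members were at 310 to 353 CPM, 85.5 to 189 CPM and 40.1 to 69.5 CPM. For smooth muscle and fibroblasts, 1 of 8 markers had values, miR-1a-3p, at 11.7 to 23.3 CPM in PBS and 20.2 to 34.7 CPM in BMP4. For blood and immune cells, 2 of 6 had values, and their summed level was 40.9 to 54.8 CPM in PBS and 74.5 to 109.6 CPM in BMP4. Of these, miR-146a-5p was called higher in BMP4 (1.22 ± 0.39, SE, n = 3 per group, edgeR adjusted p = 0.0238) and miR-155-5p was not (-0.36 ± 0.48, adjusted p = 0.596). For endothelium 1 of 2 had values, miR-126a-3p, at 50.9 to 81.3 CPM in PBS and 43.4 to 58.8 CPM in BMP4. For the erythroid markers, 0 of 4 had values. The other markers, among them the defining miR-143, miR-145a, miR-142a, miR-223 and miR-451a, were not analysed here. The part of other cells in the chromosome 8 rise was not tested.

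The entries whose levels followed those of the members most closely were found by Pearson correlation of log2 CPM over the 6 libraries, among 194 entries with a mean of 10 or more counts. These values are a description, since the 6 points share the difference between groups. For miR-23a-3p they were miR-194-5p (r = 0.998), an epithelial miRNA that rose by 2.48 ± 0.28 on the log2 scale (SE, n = 3 per group, edgeR adjusted p = 5.61e-07), miR-6240 (r = 0.997) and miR-194-1-3p (r = 0.990). For miR-27b-3p they were miR-3968 (r = 0.963), let-7d-3p (r = 0.938) and miR-185-3p (r = 0.936), and none of these was called by edgeR (adjusted p = 0.795, 0.6002 and 0.493). Some of these entries rest on low counts, so their correlations are uncertain. miR-6240 was read 2, 7 and 13 times in PBS replicates 1 to 3. miR-185-3p was read 0 times in PBS replicate 1 and in BMP4 replicate 2. miR-3968 was read 14 times in PBS replicate 1 and 11 times in BMP4 replicate 2.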

How the data were processed

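Small RNA of 6 libraries of mouse intestinal organoids, 3 PBS and 3 BMP4, was analysed. Per the study's methods, the authors removed adaptors and low-quality bases with bbmap, kept inserts of miRNA length, and used miRDeep2 to map these to the genome and count them on mature miRNAs of miRBase. The deposited values are raw counts, not normalized. The sources used here name neither the genome build nor the miRBase release.

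Counts of all 199 entries were fitted with edgeR 4.0.16 (R 4.3.3): filterByExpr kept 195, TMM set the scale, and the 2-sided quasi-likelihood F test compared BMP4 with PBS, with calls at an adjusted p under 0.05. Standard errors were derived from each fold change and its F statistic. DESeq2 1.42.0 was an alternative. Ratios used a pseudocount of 0.5 counts. The fit was tested on simulated counts whose changes went up or down at random. Those counts had no shift mostly in the same direction, so the choice of scale was not tested by them. The members, lists and tests were chosen with earlier results of these data known. The named miRNAs were the members, the other arms of their hairpins with values, and the 3 entries most alike to miR-23a-3p and to miR-27b-3p. Markers of epithelium and of other cell types were named from separate lists. A count of 3 was worth 0.722 to 8.02 TMM-scaled CPM. Reads copied by PCR are not independent, so intervals and this floor describe counting error alone. Sequences and positions are from RefSeq (GRCm38.p6), matched by name for 177 of 199 entries, and from GENCODE M21 (GRCm38).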

Additional observations from a re-analysis of the deposited data

How the results depend on the processing

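The 4 chromosome 8 members kept their direction under every alternative except total counts, where miR-27a-3p was at -0.79. With total counts 1 chromosome 8 member was called higher and 2 chromosome 13 members lower, and over all miRNAs 171 were called, 13 higher and 158 lower, against 59, 34 and 25 with TMM. Leaving out 1 library gave 35 to 71 calls (24 to 38 higher, 11 to 33 lower), with 3 to 4 of the chromosome 8 members higher and 0 of the chromosome 13 members. Leaving out PBS replicate 1, 2 or 3 gave 16, 16 and 11 lower calls, and leaving out BMP4 replicate 3 gave 13.

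Values near 0 changed sign with the setting, and none of these was called on either side except with total counts. The summed miR-23 guides were at -1.70 with total counts (adjusted p = 0.00144) and -0.057 with upper quartile scaling, and ranged from -0.015 to 0.30 without 1 library (-0.015 without BMP4 replicate 1 and -0.0021 without BMP4 replicate 3). The summed miR-27 guides were at -1.65 with total counts (adjusted p = 0.00110) and -0.019 with upper quartile scaling, and ranged from -0.046 to 0.36 (-0.046 without PBS replicate 1, -0.031 without BMP4 replicate 1, -0.0066 without BMP4 replicate 3). miR-27b-3p ranged from -0.16 to 0.23 and was above 0 once PBS replicate 2 (0.068), PBS replicate 3 (0.23) or BMP4 replicate 2 (0.14) was left out. miR-24-3p was at -1.25 with total counts and ranged from -0.040 (without BMP4 replicate 1) to 0.73 without 1 library. The miR-23b-3p to miR-27b-3p ratio ranged from -0.62 to 0.010, that of miR-24-2-5p to miR-27a-5p from -0.22 to 0.71, and that of miR-24-2-5p to miR-23a-3p from -0.023 to 0.50. The cause was not tested.

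The other 6 ratios kept their direction with pseudocounts of 0.1 or 5 and without any 1 library. For miR-27a-5p to miR-27a-3p, the difference was 1.28 with a pseudocount of 5 (exact permutation p = 0.3). It was 1.39 without PBS replicate 3 (exact permutation p = 0.2). For miR-23a-3p to miR-27a-3p, the difference was 1.35 without BMP4 replicate 2 (exact permutation p = 0.2). The replicate numbers were not taken to pair the libraries, since the correlations of same-numbered deviations were 0.04, 0.09 and -0.01. With the replicate number as a block 49 miRNAs were called and miR-27a-3p was not (0.95, adjusted p = 0.0943), which leaves 3 chromosome 8 members called.

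Low counts limit miR-27a-5p and miR-24-2-5p (3 and 9 counts in PBS replicate 1), miR-24-3p (5 in PBS replicate 1 and 3 in BMP4 replicate 2) and miR-23b-5p (0 in PBS replicate 1). Among the entries most alike to the members, they limit miR-6240 (2 in PBS replicate 1) and miR-185-3p (0 in PBS replicate 1 and in BMP4 replicate 2).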
